A study of Mus musculus with 4 samples.

Results

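The genes described here carry out the amino acid response of mouse dendritic cells (DC), the antigen-presenting cells that prime T cells. They fall into 3 groups: targets of the transcription factor ATF4 (ATF4 itself among them), enzymes that charge transfer RNAs (tRNA synthetases), and amino acid transporters of the plasma membrane. Members were chosen by name, as 20 ATF4 targets, 17 synthetases and 15 transporters, and each was read from its brightest probe set among those annotated to that gene alone. Of the 52 genes, 49 were measured among the 12393 genes with such a probe set, namely 19 ATF4 targets, 16 synthetases and 14 transporters. Pycr1, Mars and Slc43a2 were not analysed here.

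The study set NKT-modulated DC, bone marrow DC changed by natural killer T (NKT) cells, against immature DC, each group with 2 Affymetrix arrays. Per the labels all 4 samples were bone marrow dendritic cells of the C57BL/6 strain, and per the design text the RNA came from CD11c cells. The labels give neither the length nor the conditions of the exposure to NKT cells, nor whether the arrays of a group came from separate cultures, so a p-value here speaks only for the scatter among these arrays, which may be technical. Each value is a deposited linear signal per probe set, in arbitrary brightness units. Whether arrays overlapped is told from these signals, unless stated otherwise, while changes and tests come from normalized values. In normalized values the groups were apart for many of all 12393 genes, 2952 higher and 4023 lower in NKT-modulated DC. A gap between the arrays therefore sets a gene little apart from the others.

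When amino acids run short, when unfolded proteins build up in the endoplasmic reticulum, or when viral RNA is sensed, kinases phosphorylate the translation factor eIF2alpha. Most translation then slows, while translation of the Atf4 messenger RNA is favoured. ATF4 pairs with C/EBP proteins and other partners at C/EBP-ATF response elements near genes for amino acid synthesis, uptake and tRNA charging. Because ATF4 is controlled largely at translation, its messenger level is only part of its activity. In DC and macrophages, amino acid supply and consumption, of arginine and tryptophan above all, are known to shape the T cell response.

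Over all genes, 742 were called higher (5.99%) and 855 lower (6.90%) in NKT-modulated DC than in immature DC, at an adjusted p under 0.05 in limma's moderated test (12.9% in either direction). At an unadjusted p under 0.05, 1429 of the 12393 genes were higher and 2062 lower. The balance of rises and falls turned over with the scaling: higher genes made up 46.5% of the calls after quantile normalization, 35.2% with no further normalization, 54.0% with cyclic loess and 56.2% with median scaling. Of the 49 measured members, 9 rose and 2 fell, which is 22.4% of them. When only probe sets with a mean signal of at least 100 were fitted, 27.5% of 7423 genes and 27.3% of 44 members were called. In that fit the members' share was near that of all genes of that brightness. The fit had its own normalization and adjustment and called 863 genes higher and 1175 lower, so its shares differ from the main ones not by brightness alone. The median log2 change of the measured members was 0.16, against −0.04 over all genes.

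Beyond the members, the libraries of NKT-modulated DC differed in other RNA. T and NKT cell markers were higher for 16 of 23 measured genes, with summed signals of 22260 and 16390 on the NKT-modulated arrays, against 2261 and 2286 on the immature arrays. Without the cytokines Il4 and Ifng the sums were 11580 and 9135 in NKT-modulated DC, against 2229 and 2259 in immature DC. None of these markers was at 0, and Cd4, Cd5, Cd2, Cd27 and Cd40lg stayed under 100 on all 4 arrays. Of 12 DC markers 4 were called higher (Batf3, Cd40, Cd86 and Irf8) and 0 lower, with summed signals of 70440 and 63480 in NKT-modulated DC and 53030 and 50870 in immature DC. At an unadjusted p under 0.05, 5 were higher and 1 lower. Flt3, the receptor of a DC growth factor, stood at −0.54 ± 0.16 (log2 change ± SE, adjusted p = 0.0875), Ciita at −0.20 ± 0.09 and the integrin Itgax, which encodes CD11c, at −0.19 ± 0.08. Of 7 neutrophil markers Ngp and S100a8 were called higher, at 0.94 ± 0.19 and 0.62 ± 0.14, and the list summed to 1528 and 1274 in NKT-modulated DC and 871.4 and 1047 in immature DC. Of 6 B cell markers Cd79b was called, at 2.47 ± 0.23, with sums of 515.9 and 438.8 in NKT-modulated DC and 253.8 and 260.8 in immature DC. Of 6 macrophage markers Mertk was called higher (1.09 ± 0.09) and Cd14 and Fcgr1 lower (both −0.54), with sums of 27260 and 26310 in NKT-modulated DC and 28260 and 27470 in immature DC. The neutrophil markers Mpo, Elane, Camp and Ltf and the B cell markers Cd79a, Ms4a1, Pax5 and Ebf1 stayed under 100 on all 4 arrays, and no marker of these lists was at 0. The 3′/5′ signal ratio of Gapdh, a gauge of RNA integrity, was 1.87 and 1.98 in NKT-modulated DC and 1.76 and 1.44 in immature DC. The same ratio of Actb was 1.09 and 1.18 in NKT-modulated DC and 1.18 and 1.16 in immature DC, which overlap. The differences in the markers and in the Gapdh ratio accompany every result below, and their part in the results was not tested. In such bulk samples, fewer cells of a type and less RNA per cell cannot be told apart.

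**Figure D1:**
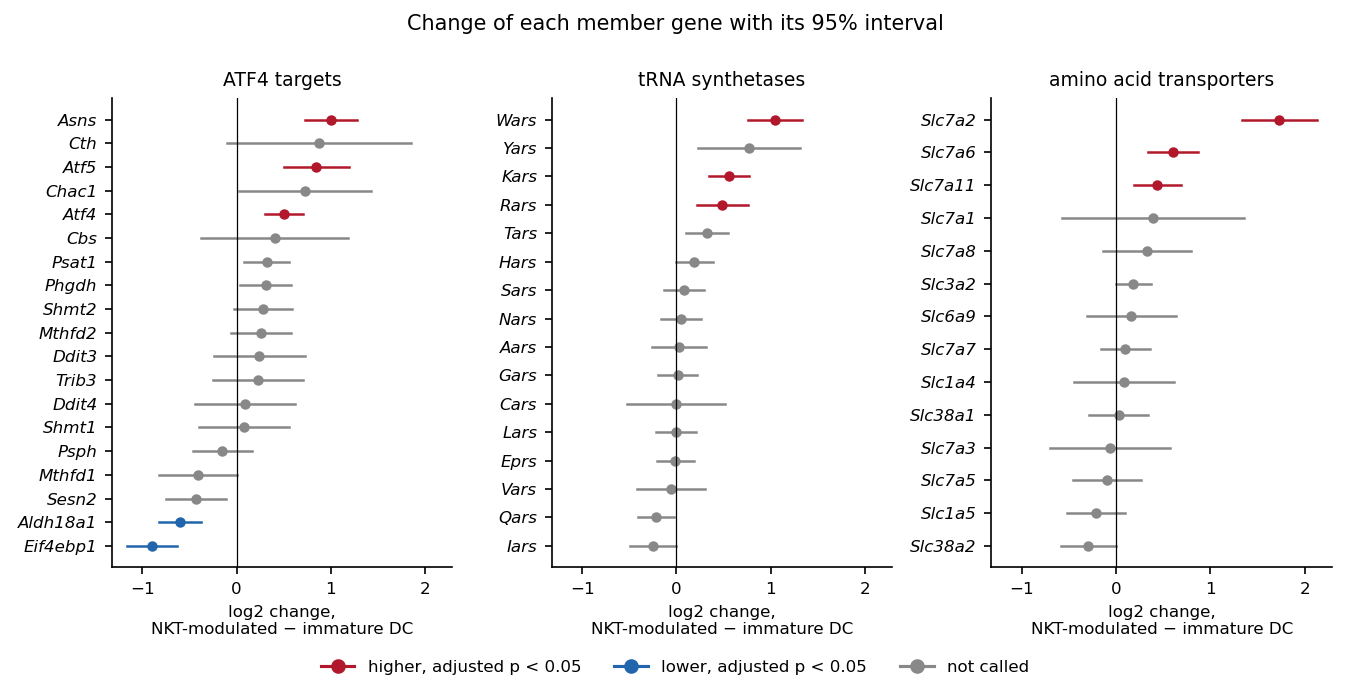
Change of each measured member in NKT-modulated DC relative to immature DC, as a log2 difference of normalized signals with its 95% confidence interval, ordered within the 3 groups; red (higher) and blue (lower) mark an adjusted p under 0.05. Slc7a2, Wars and Asns lie farthest to the right among the called members and Eif4ebp1 farthest to the left.

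Among the ATF4 targets, Atf4, Atf5 and Asns rose and Eif4ebp1 and Aldh18a1 fell in NKT-modulated DC, while 14 of 19 did not pass the test. The share called was 26.3%, against 12.9% of all genes (5 of 16 in the fit of brighter probe sets, against 27.5%). The group's median log2 change was 0.26, or 0.12 with no further normalization, where the medians of all genes were −0.04 and −0.12. Of its 19 members 14 had a change above 0, against 5566 of all 12393 genes. The called members went both ways: the genes of the regulators and of asparagine synthesis were higher, those of a translation inhibitor and of a proline synthesis enzyme were lower, and the stress genes Ddit3, Ddit4, Trib3 and Chac1 were not called.

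Atf4 encodes the regulator itself. Its signal was 4077.7 and 3615.6 in NKT-modulated DC, against 2581.5 and 2892.4 in immature DC. Both NKT-modulated arrays lay above both immature arrays, and the log2 change was 0.50 ± 0.08 (SE, n = 2 arrays per group; adjusted p = 0.0139, limma), a 1.42-fold rise. This probe set is of the x_at kind, whose probes can match other transcripts as well. The brightest probe sets of Eif4ebp1, Aldh18a1 and Wars are of that kind too. The next Atf4 probe set changed by 0.27 ± 0.10 and was not called (adjusted p = 0.137), and a very dim one stood at −0.31 ± 0.39. With the mean of the 3 probe sets the Atf4 change was 0.16 (adjusted p = 0.522).

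Atf5 encodes a related factor that is likewise translated under eIF2alpha phosphorylation. It read 722.82 and 562.66 in NKT-modulated DC, against 375.29 and 419.43 in immature DC, with no overlap. The log2 change was 0.85 ± 0.14 (adjusted p = 0.0161, limma), or 1.80-fold, and with no further normalization it was 0.66 (adjusted p = 0.0534). Ddit3, which encodes the stress factor CHOP, read 264.26 and 259.28 in NKT-modulated DC and 204.01 and 322.93 in immature DC. Here the deposited signals overlapped, since 1 immature array lay above and the other below the NKT-modulated ones. After quantile normalization they were narrowly apart, at 8.215 and 8.224 (log2) in NKT-modulated DC against 7.745 and 8.210 in immature DC. The interval of the log2 change reached from −0.24 to 0.73.

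Asns encodes asparagine synthetase, a classic ATF4 target that makes asparagine from aspartate and glutamine. Its signal was 781.69 and 707.93 in NKT-modulated DC, against 381.48 and 449.2 in immature DC. The groups were clearly apart, and the log2 change of 1.00 ± 0.11 was a 2.00-fold rise (adjusted p = 0.00365, limma). The second Asns probe set was called as well, at 0.78 ± 0.17. The Asns promoter holds 1 C/EBP-ATF response element, and it is printed here because this gene combined a called change in both of its probe sets with the element. The RefSeq window (GRCm38.p6, chr6:7693160-7693459, minus strand, from 250 bases before the start of the gene to 50 bases after it) reads 5′ to 3′ as follows, with the element in capitals.
Asns: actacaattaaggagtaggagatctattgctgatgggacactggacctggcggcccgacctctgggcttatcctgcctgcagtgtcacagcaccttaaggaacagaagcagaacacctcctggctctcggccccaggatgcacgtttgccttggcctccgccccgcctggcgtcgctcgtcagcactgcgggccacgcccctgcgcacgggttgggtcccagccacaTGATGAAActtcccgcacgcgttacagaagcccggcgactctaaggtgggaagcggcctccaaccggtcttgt

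The element was searched as TGATGNAA on both strands. It begins 23 bases before the start of Asns.

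The serine and one-carbon enzymes beside Asns did not pass the test. Psat1, the transaminase of serine synthesis, read 845.11 and 793.61 in NKT-modulated DC and 695.71 and 766.22 in immature DC, a log2 change of 0.32 ± 0.10 (adjusted p = 0.101). Phgdh, the first enzyme of that pathway, read 1050.9 and 1041.4 in NKT-modulated DC and 800.0 and 1062.9 in immature DC (0.31 ± 0.11, adjusted p = 0.150). Its next probe set stood at 0.84 ± 0.22 and was not called either (adjusted p = 0.0686), and the remaining ones at 0.27 ± 0.34 and 0.32 ± 0.32. The deposited Psat1 signals were narrowly apart. Those of the brightest Phgdh probe set overlapped, but were apart after quantile normalization. Shmt2, the mitochondrial serine hydroxymethyltransferase, read 816.32 and 670.07 in NKT-modulated DC and 611.68 and 754.22 in immature DC (0.28 ± 0.12, adjusted p = 0.233).

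Mthfd2, a mitochondrial folate enzyme, depended on the probe set. Its brightest one read 999.58 and 1250.9 in NKT-modulated DC and 964.59 and 1079.3 in immature DC, at 0.26 ± 0.13 and not called (adjusted p = 0.293). Its second one read 864.41 and 821.74 in NKT-modulated DC, against 584.86 and 706.35 in immature DC, at 0.54 ± 0.10 and called (adjusted p = 0.0235). Mthfd2 was the 1 member of which only a probe set other than the brightest was called. The remaining enzymes of this branch were not called: Psph, which completes serine synthesis, stood at −0.15 ± 0.13, the cytosolic Shmt1 at 0.08 ± 0.20 and the cytosolic folate enzyme Mthfd1 at −0.41 ± 0.17. Further Shmt1 probe sets stood at 0.74 ± 0.27 (adjusted p = 0.153), 0.30 ± 0.24 and −0.05 ± 0.22. Those of Mthfd1 stood at −0.42 ± 0.15 and 0.34 ± 0.26. None of these further probe sets was called.

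Eif4ebp1 fell. It encodes 4E-BP1, which binds the cap-binding factor eIF4E and restrains translation when mTORC1 is inactive. Its signal was 698.86 and 708.52 in NKT-modulated DC, against 1276.2 and 1656.4 in immature DC. The NKT-modulated arrays were close together and far below the immature ones, with a log2 change of −0.90 ± 0.11 (adjusted p = 0.00477, limma), or 1.86-fold lower. A second probe set fell too, at −0.74 ± 0.13 (adjusted p = 0.0207), and the remaining one, with signals under 100, stood at 0.05 ± 0.25.

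Aldh18a1 encodes the enzyme that starts proline synthesis from glutamate. It read 1230.4 and 1174.2 in NKT-modulated DC, against 1742.3 and 2167.8 in immature DC, a log2 change of −0.60 ± 0.09 (adjusted p = 0.0110, limma), or 1.51-fold lower. Of its 5 probe sets 2 were called, both lower, and all 5 had changes between −0.60 and −0.05, while their mean was not called (−0.39, adjusted p = 0.0982). Both called ones are of the x_at kind. The probe set not of that kind was not called (−0.39 ± 0.13, adjusted p = 0.130). Sesn2, whose protein senses leucine and restrains mTORC1, read 899.06 and 762.48 in NKT-modulated DC and 1266.9 and 1206.5 in immature DC. Its arrays did not overlap, but its change of −0.43 ± 0.13 missed the threshold (adjusted p = 0.0934), as did its second probe set at −0.41 ± 0.11. It passed with no further normalization (−0.57, adjusted p = 0.0391) and with the mean of its probe sets (−0.42, adjusted p = 0.0462).

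The other stress feedback genes gave wide intervals. Ddit4, which encodes an inhibitor of mTORC1 called REDD1, read 139.67 and 175.66 in NKT-modulated DC and 151.81 and 193.5 in immature DC, and the interval of its change was −0.45 to 0.61. Trib3, a pseudokinase that restrains ATF4, read 154.03 and 136.56 in NKT-modulated DC and 129.26 and 154.26 in immature DC (interval −0.25 to 0.70). The deposited signals of Ddit4 and of Trib3 overlapped between the groups, though those of Trib3 were apart after quantile normalization. Chac1, a glutathione-degrading enzyme induced through ATF4, read 92.483 and 139.08 in NKT-modulated DC and 69.166 and 66.251 in immature DC. Its arrays were apart, yet dim and widely spread, and the change of 0.73 ± 0.29 was not called (adjusted p = 0.183). The transsulfuration enzymes Cth and Cbs, which turn homocysteine into cysteine, had signals under 100 on every array and changes of 0.87 ± 0.40 and 0.40 ± 0.32.

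**Figure D2:**
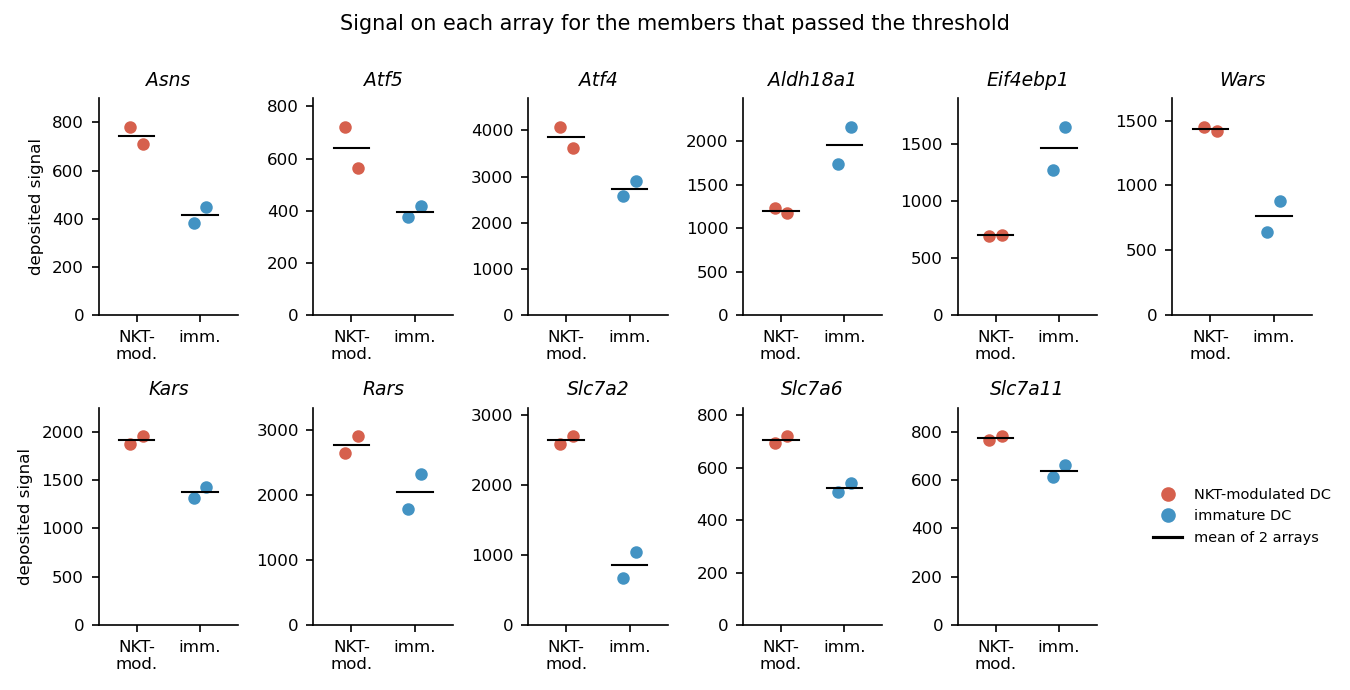
Deposited signal of each of the 11 called members on each of the 4 arrays, on linear axes that start at 0, with NKT-modulated DC left of immature DC and a bar at the mean of the 2 arrays. In every panel the points of the groups do not overlap, and Eif4ebp1 and Aldh18a1 are the members that lie lower in NKT-modulated DC. The panels were picked by their calls, so these gaps are no further support. Gaps were common over all 12393 genes, with 2952 higher and 4023 lower in normalized values.

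Calls in this group were sensitive to single arrays. Asns and Eif4ebp1 passed without any one array, whereas Atf4 did not pass without NKT-modulated array 1 (adjusted p = 0.107), NKT-modulated array 2 (0.0548) or immature array 2 (0.0501), Atf5 without NKT-modulated array 1 (0.0911), immature array 1 (0.0642) or immature array 2 (0.0655), and Aldh18a1 without NKT-modulated array 1 (0.071), NKT-modulated array 2 (0.07) or immature array 2 (0.0519).

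Among the tRNA synthetases, the enzymes for tryptophan (Wars), lysine (Kars) and arginine (Rars) rose in NKT-modulated DC, none fell, and 13 of 16 did not pass. The share called was 18.8%, against 12.9% of all genes, and in the fit of probe sets with a mean signal of at least 100 it was 4 of 16, against 27.5% of genes. At an unadjusted p under 0.05 the counts were 5 higher and 2 lower, against 1429 higher and 2062 lower among all 12393 genes. The median log2 change of the group was 0.04, close to that of all genes, and it was −0.04 with no further normalization, where the median of all genes was −0.12. Synthetases are divided by the fold of their catalytic domain. Of class I, 2 of 9 measured members rose (Wars and Rars), and of class II, 1 of 7 (Kars).

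Wars, the synthetase that is also known as an interferon-gamma-inducible gene, read 1453.0 and 1422.6 in NKT-modulated DC, against 644.34 and 878.53 in immature DC. Both NKT-modulated arrays were well above the immature ones, at a log2 change of 1.05 ± 0.12 (adjusted p = 0.00363, limma), or 2.06-fold. All 4 of its probe sets were called higher, with changes from 0.77 to 1.05. Ifng, the gene of interferon gamma itself, read 3124.5 and 1969.1 in NKT-modulated DC, against 1.764 and 5.662 in immature DC. Whether Ifng moved with Wars within cells was not tested.

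Kars read 1877.2 and 1956.0 in NKT-modulated DC, against 1316.9 and 1430.5 in immature DC, a log2 change of 0.56 ± 0.09 (adjusted p = 0.0124, limma), or 1.47-fold. Rars read 2645.8 and 2902.7 in NKT-modulated DC, against 1779.1 and 2315.0 in immature DC (0.49 ± 0.11, adjusted p = 0.0437), or 1.40-fold, and it did not pass with no further normalization (0.45, adjusted p = 0.107) or with a pseudocount of 64 (0.48, adjusted p = 0.0511). The arrays of these genes did not overlap between the groups, and each had 1 probe set. Both proteins sit in the multi-synthetase complex of the cytosol, as do those of Eprs, Iars, Lars and Qars. The genes Eprs, Iars, Lars and Qars were not called, with changes of −0.01 ± 0.08, −0.24 ± 0.10, −0.00 ± 0.09 and −0.22 ± 0.08. The remaining Qars probe sets, also not called, stood at 0.02 ± 0.10, 0.64 ± 0.44 and 0.13 ± 0.36.

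The remaining synthetases were not called. Aars stood at 0.03 ± 0.12, Gars at 0.01 ± 0.09, Nars at 0.05 ± 0.09, Sars at 0.08 ± 0.09 and Cars at −0.00 ± 0.22. Tars read 1380.5 and 1450.8 in NKT-modulated DC and 1127.2 and 1311.2 in immature DC (0.32 ± 0.09, adjusted p = 0.0779). Yars read 578.89 and 533.66 in NKT-modulated DC and 269.34 and 494.22 in immature DC. For Tars and Yars the arrays were apart, but the immature arrays of Yars differed widely, and its change of 0.77 ± 0.22 was not called (adjusted p = 0.0864). Yars was called higher, beside Wars, Kars and Rars, in the fit of probe sets with a mean signal of at least 100. Tars was called higher with cyclic loess. Hars and Vars completed the group at 0.19 ± 0.08 and −0.06 ± 0.15. Wars passed without any one array. Kars did not without NKT-modulated array 1 (adjusted p = 0.0634), NKT-modulated array 2 (0.0864) or immature array 2 (0.0535), nor Rars without NKT-modulated array 1 (0.0953), NKT-modulated array 2 (0.192) or immature array 1 (0.141).

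Among the amino acid transporters, Slc7a2, Slc7a6 and Slc7a11 rose in NKT-modulated DC, none fell, and 11 of 14 did not pass. All 3 belong to the SLC7 family, whose members in this list carry cationic amino acids or pair with the CD98 heavy chain. That family makes up much of the list, with 5 light chains and 3 cationic carriers among the 14 measured genes. At an unadjusted p under 0.05 the counts were 3 higher and 1 lower (Slc38a2, a sodium-coupled carrier of neutral amino acids, at −0.30 ± 0.12, adjusted p = 0.190). Among all 12393 genes they were 1429 higher and 2062 lower. The share called was 21.4%, against 12.9% of all genes (3 of 12 in the fit of brighter probe sets, against 27.5%), and the median log2 change was 0.13; with no further normalization that median was −0.05.

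Slc7a2 encodes CAT2, the inducible arginine transporter of myeloid cells. It read 2591.5 and 2703.3 in NKT-modulated DC, against 670.2 and 1051.3 in immature DC. No other member changed as much: the log2 change was 1.73 ± 0.16 (adjusted p = 0.00209, limma), or 3.31-fold, which placed it at rank 182 of the 742 rises by size. All 3 of its probe sets were called, with changes from 1.73 to 2.24. The other cationic carriers gave no call. Slc7a1, the widely expressed CAT1, read 23.487 and 25.44 in NKT-modulated DC and 30.137 and 4.4635 in immature DC (0.39 ± 0.40), signals near the dim end of the arrays, and Slc7a3 stood at −0.07 ± 0.26.

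Slc7a6 encodes y+LAT2, a light chain that exchanges arginine for neutral amino acids. It read 694.17 and 719.78 in NKT-modulated DC, against 505.63 and 540.98 in immature DC, with a log2 change of 0.60 ± 0.11 (adjusted p = 0.0216, limma), or 1.52-fold, and its second probe set rose by 0.83. Slc7a11 encodes xCT, which imports cystine in exchange for glutamate and feeds glutathione synthesis. It read 766.5 and 782.0 in NKT-modulated DC, against 612.44 and 664.54 in immature DC (0.44 ± 0.10, adjusted p = 0.0476), or 1.35-fold. In Slc7a6 and Slc7a11 the arrays of the groups were apart by a small margin. With no further normalization Slc7a6 stood at 0.42 (adjusted p = 0.103) and Slc7a11 at 0.27 (adjusted p = 0.262), and Slc7a11 also missed the threshold with a pseudocount of 64 (0.41, adjusted p = 0.0532).

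The heavy chain and its main partner were not called. Slc3a2, the CD98 heavy chain, read 3507.0 and 3411.1 in NKT-modulated DC and 2901.0 and 3219.6 in immature DC (0.18 ± 0.08, adjusted p = 0.201), and it passed with median scaling of the arrays (0.36, adjusted p = 0.0487). Slc7a5, the leucine transporter LAT1, read 1481.7 and 1234.4 in NKT-modulated DC and 1639.4 and 1459.0 in immature DC, and its groups overlapped. The interval of the Slc7a5 change, −0.45 to 0.26, leaves out a rise of the size seen in Slc7a6. Slc7a7 and Slc7a8, further light chains, stood at 0.10 ± 0.11 and 0.33 ± 0.19.

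The sodium-coupled and other carriers of neutral amino acids gave 0 calls among 5, where 12.9% of all genes were called. A list this short cannot be told from that share by a count of 0. Slc1a5, the glutamine carrier ASCT2, read 432.48 and 389.17 in NKT-modulated DC and 488.84 and 621.98 in immature DC (−0.21 ± 0.13, adjusted p = 0.364). Slc1a4 stood at 0.08 ± 0.22, the glycine carrier Slc6a9 at 0.16 ± 0.19 and Slc38a1 at 0.03 ± 0.13. The remaining Slc1a4 probe sets, with signals under 100, stood at −1.09 ± 0.37 (adjusted p = 0.128) and −0.67 ± 0.41 and were not called. Slc7a2 passed without any one array. Slc7a6 did not pass without NKT-modulated array 1 (adjusted p = 0.0952), NKT-modulated array 2 (0.113), immature array 1 (0.0617) or immature array 2 (0.0889), nor did Slc7a11 without them (0.158, 0.188, 0.113 and 0.164 in the same order).

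**Figure D3:**
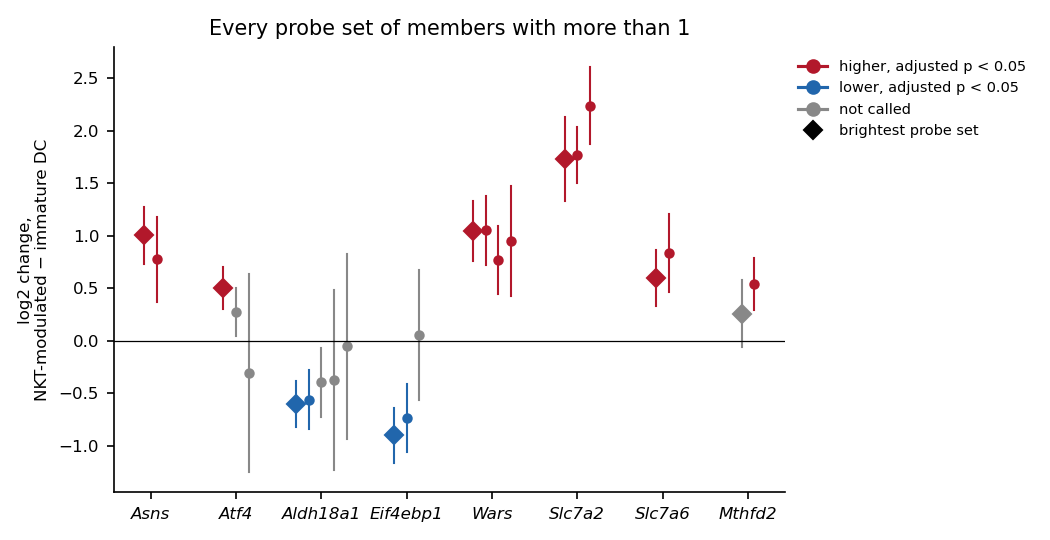
Log2 change in NKT-modulated DC relative to immature DC for every probe set of the called members with more than 1 probe set and of Mthfd2, with 95% confidence intervals; a diamond marks the brightest probe set of each gene, and red and blue mark calls. All 4 probe sets of Wars and all 3 of Slc7a2 lie above 0, whereas those of Atf4 fall on either side of it.

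Across the 3 groups, 26 members had more than 1 probe set, 94 probe sets in all for the measured members, and 0 members had probe sets called in opposite directions. By size most called members ranked low among the calls. The median called rise over all genes was 1.04 on the log2 scale and the median called fall 0.79. Slc7a2 exceeded that median rise and Wars barely did, Asns and Atf5 came next, and Eif4ebp1 exceeded the median fall. Slc7a6, Kars, Atf4, Rars and Slc7a11 held ranks 609, 631, 668, 681 and 709 of the 742 rises. Aldh18a1 held rank 624 of the 855 falls.

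The C/EBP-ATF response element was then set beside the calls. RefSeq promoter windows were at hand for 38 of the 52 members. The element TGATGNAA was found on either strand in 12 of them, against 4.51% of 27025 genes with windows of the same length. It was present in 5 of 10 synthetases, 4 of 18 ATF4 targets and 3 of 10 transporters. By call, 2 of 6 called rises held it (Asns and Slc7a11), 0 of 1 called fall, and 9 of 28 measured members that were not called. The following excerpts give the matched sites with their flanks, which the search did not fix. Each has 20 bases, is turned so that the element (in capitals) reads TGATGNAA, and comes from GRCm38.p6. The first 3 are from genes that rose and the others from genes that were not called.
Asns: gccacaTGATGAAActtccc
Slc7a11 farther from the start: tgtggcTGATGCAAacctgg
Slc7a11 nearer to the start: gcatgaTGATGCAAattctc
Chac1: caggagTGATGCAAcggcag
Trib3: cccggcTGATGTAAacctga
Slc1a4: tggagaTGATGCAAcgcagg
Slc7a7, first match: agaagcTGATGCAAcagctt
Slc7a7, second match: tgggctTGATGAAAggttca
Aars, first match: ctcggcTGATGCAAtgctca
Aars, second match: gcgctcTGATGAAAagtgac
Gars: ggtgcaTGATGAAAtagcgc
Iars: tggaggTGATGCAAtactga
Tars: accagcTGATGCAAcgggac
Yars: ctcagcTGATGCAAcccgac

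Among the called members with a window, Slc7a11 was the only one with a pair of elements, 66 and 47 bases before its start, on opposite strands. Its window (GRCm38.p6, chr3:50443564-50443863, minus strand) is printed 5′ to 3′ because of that pair, with both elements in capitals, the second of them read on the other strand.
Slc7a11: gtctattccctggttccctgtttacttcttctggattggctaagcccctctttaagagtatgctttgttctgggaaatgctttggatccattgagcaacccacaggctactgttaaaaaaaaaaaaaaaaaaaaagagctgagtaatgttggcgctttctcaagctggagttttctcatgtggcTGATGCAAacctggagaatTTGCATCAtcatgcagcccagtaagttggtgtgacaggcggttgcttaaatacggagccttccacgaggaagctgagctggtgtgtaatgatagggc

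The element lay 30 bases before the start in Gars, 15 before it in Tars and 3 after it in Yars. These are matches of letters in the window and were not tested as binding sites. No window was at hand for Wars, Rars, Slc7a2 and Eif4ebp1.

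Further genes around the same response showed which of its neighbours moved. Of the eIF2alpha kinases and phosphatase subunits, 2 of 7 measured rose and 0 fell, a share of 28.6%, against 12.9% of all genes. At an unadjusted p under 0.05, 2 more were lower, as were 2062 of all 12393 genes. Ppp1r15a, which encodes GADD34, the stress-induced subunit that restores translation by dephosphorylating eIF2alpha, read 1120.5 and 1024.5 in NKT-modulated DC, against 571.37 and 588.22 in immature DC (1.02 ± 0.11, adjusted p = 0.00313, limma). Eif2ak2 encodes PKR, the interferon-inducible kinase activated by double-stranded RNA, and read 249.9 and 261.55 in NKT-modulated DC, against 126.68 and 105.28 in immature DC (1.21 ± 0.20, adjusted p = 0.0141). The arrays of Ppp1r15a and of Eif2ak2 were far apart between the groups. Eif2ak4, the amino acid sensor GCN2, stood at −0.81 ± 0.22 and was not called (adjusted p = 0.0733), and Eif2ak3, the endoplasmic reticulum sensor PERK, at −0.23 ± 0.19.

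Other genes linked to ATF4 split as well, with 4 of 16 higher and 2 lower. The share called was 37.5%, against 12.9% of all genes. These further lists were not counted in the fit of brighter probe sets. Atf3, a stress factor downstream of ATF4 and of other inputs such as Toll-like receptors, read 4154.3 and 4734.2 in NKT-modulated DC, against 1203.2 and 1099.4 in immature DC. This was a 3.99-fold rise (log2 change 2.00 ± 0.14, adjusted p = 0.000723, limma), greater than that of any member. Jdp2, a repressor of the same family, rose by 1.44 ± 0.15 (adjusted p = 0.00302). Sesn1, the p53-linked relative of Sesn2, fell by 1.40 on the log2 scale (SE 0.20), with 342.52 and 223.03 in NKT-modulated DC, against 768.45 and 971.85 in immature DC (adjusted p = 0.00837). Stc2 and Sqstm1 also rose and Cebpd fell, at 1.61 ± 0.28, 0.39 ± 0.08 and −0.58 ± 0.11.

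The unfolded protein response of the endoplasmic reticulum, a route into the same kinase cascade, gave 1 call among 18 genes. The share was 5.56%, against 12.9% of all genes. Dnajb9, a co-chaperone of that compartment, rose by 0.41 ± 0.08 (adjusted p = 0.0239, limma). Hspa5, the chaperone BiP, read 11535 and 10400 in NKT-modulated DC and 9379.2 and 9054.6 in immature DC (0.16 ± 0.07), and Xbp1 stood at −0.19 ± 0.08. Neither was called. The median of this list was 0.13. Of the cytosolic synthetases and scaffold proteins outside the member list, 0 of 5 measured were called by limma, against 12.9% of all genes. At an unadjusted p under 0.05 the count was 0, against 1429 higher and 2062 lower among all 12393 genes. The median of this list was 0.08.

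**Figure D4:**
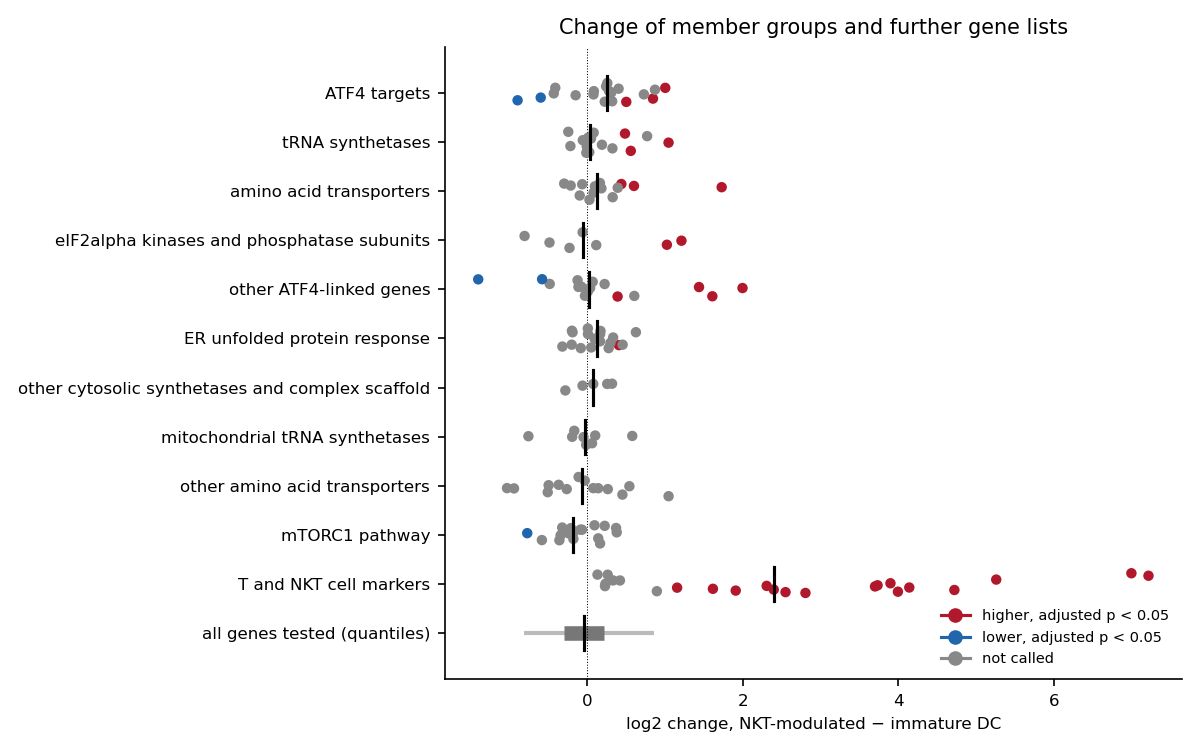
Log2 change in NKT-modulated DC relative to immature DC for each measured gene, 1 row per member group, further list or marker list; red and blue mark an adjusted p under 0.05 and the upright bar the median. The lowest row gives all genes, from the 5% to the 95% quantile (thin line, −0.82 to 0.85) and from the 25% to the 75% quantile (thick line, −0.30 to 0.21), and the T and NKT cell markers reach farthest to the right.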

How the data were processed

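RNA of 4 bone marrow DC samples was read on Affymetrix arrays. Each deposited value is the linear intensity of 1 probe set on 1 array. Per the submitters' processing notes, the authors used GCOS, Affymetrix's scanner software; its version, the way probes were summarised and the scaling were not stated in the sources used here. An array type is named in the design text with more probe sets than the 22690 rows present, and that text and the labels differ on the number of amplification cycles, so neither is settled here. The number of arrays limits the precision.

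The 64 control probe sets were left out. The other 22626 entered on a log2 scale, as log2(signal + 16), and were quantile normalized, since array quartiles differed by up to 0.27 log2 and median signals were 136 and 129 in NKT-modulated DC and 146 and 158 in immature DC. Within groups the arrays correlated at 0.987 and 0.985 (Pearson), and between groups at 0.960 to 0.965 over probe sets, which are not independent replicates; no arrays held identical values. A fold change on this scale understates changes of dim genes. The comparison used limma 3.58.1 under R 4.3.3 (lmFit, eBayes with an intensity trend, two-sided; 2 residual and 4.13 prior degrees of freedom), with Benjamini-Hochberg adjustment over all 22626 probe sets. The steps were tested on simulated data.

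Of the probe sets tested, 20380 had 1 gene symbol in the platform's annotation, 691 had several and 1555 had none here; for 20351 the current symbol was taken by gene ID from a RefSeq table of GRCm38.p6. Values per array are given for every called member and for a fixed set of readouts, and up to 4 called genes with the smallest p are named of each further list, while other genes of those lists were named after their values were seen. The members and lists were chosen with earlier results of these data known. Promoter sequences are RefSeq's (GRCm38.p6).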

Additional observations from a re-analysis of the deposited data

How the results depend on the processing

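The 14 alternatives changed 1 choice at a time. No called member changed direction under any of them. Asns, Wars and Slc7a2 stayed called in 13, losing the call only at the design text's threshold of 0.001, and Eif4ebp1 in 12, losing it there and without the intensity trend (adjusted p = 0.0518), as did the other called members. At 0.001 the counts were 0 for every member group and direction, and 131 higher and 22 lower over all genes. Without the intensity trend, 1 ATF4 target, 1 synthetase and 1 transporter were called higher, 0 ATF4 targets lower, and 384 genes higher and 272 lower over all. With no further normalization 1 transporter was called higher. Leaving out 1 array at a time gave 1 to 2 ATF4 targets higher and 1 to 2 lower, 1 to 3 synthetases higher, 1 transporter higher, and over all genes 397 to 510 higher and 305 to 406 lower, with fewer samples in each fit. Direction reversed only for readouts that were not called: Ddit4 with no further normalization (−0.12) and over single arrays left out (−0.11 to 0.28), Slc7a5 (−0.28 to 0.085) and Slc7a1 (−0.17 to 0.95). The causes were not tested. Signals near or under 100, as for Chac1, Cth, Cbs and Slc7a1, gave wide intervals. No paired analysis was possible because the labels give the arrays no replicate numbers shared between groups.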

Other observations

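Mitochondria charge tRNAs with their own enzymes. Of these synthetases, 0 of 8 measured were called by limma, where 12.9% of all genes were, and 0 had an unadjusted p under 0.05. A list this short cannot be told from that share by a count of 0. The median log2 change in NKT-modulated DC relative to immature DC was −0.03. The other amino acid transporters gave 0 calls among 14 measured by limma, against 12.9% of all genes. At an unadjusted p under 0.05, 1 was higher and 3 were lower, and the median was −0.07. Among all 12393 genes, 1429 were higher and 2062 lower at that unadjusted threshold. Slc38a10 stood at −0.37 ± 0.11 (SE, n = 2 arrays per group; adjusted p = 0.0969, limma), and Slc6a6, the taurine transporter, at −0.51 ± 0.21 (adjusted p = 0.210).

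Amino acids also act through mTORC1, the kinase complex that promotes growth. Of its components and regulators, 0 rose and 1 fell among 17 measured (5.88%, against 12.9% of all genes), and their median log2 change was −0.18. Deptor, which encodes an inhibitor of mTOR kinase, read 235.14 and 177.62 in NKT-modulated DC, against 433.77 and 406.25 in immature DC (−0.77 ± 0.18, adjusted p = 0.0480, limma). The arrays of Deptor did not overlap between the groups. Lamtor1, a subunit of the Ragulator complex that anchors mTORC1 at lysosomes, read 6723.2 and 6908.5 in NKT-modulated DC, against 8752.7 and 8142.8 in immature DC, and was not called (−0.36 ± 0.09, adjusted p = 0.053).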
